A study of Mus musculus with 15 samples.

Results

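The genes described here encode the MHC class I molecules of the mouse and the proteins that load them with peptide. They were 10 genes chosen by name: the heavy chain genes H2-Q10, H2-K1, H2-D1, H2-T23 and H2-M3, the light chain gene B2m, the peptide transporter genes Tap1 and Tap2, the tapasin gene Tapbp and the regulator gene Nlrc5. Every probe set (a group of array probes read as 1 value) with exactly 1 gene symbol equal to a listed gene was used. This gave 11 probe sets of 9 genes, of 41345 probe sets in all. H2-Q10 and Tapbp had 2 probe sets each. H2-D1 had none of its own, because its only probe set also lists H2-Q2, and it was not analysed here. A further probe set that lists Tapbp together with a neighbouring gene was left out by the same rule. The choice was made with results in view: the large difference of H2-Q10 with vesicles, and the disagreement between its probe sets, were already known. H2-Q10 is therefore described without a test in every comparison, and tests are given for the 9 probe sets of the 8 other genes.

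A class I molecule is a heavy chain paired with beta-2 microglobulin that displays short peptides at the cell surface. The peptides are cut by the proteasome, pumped into the endoplasmic reticulum by the TAP transporter and loaded with the help of tapasin, calreticulin and ERp57. T cells read the classical molecules H2-K and H2-D, and NK cells sense their loss. Class I genes are expressed by nearly all nucleated cells, hematopoietic progenitors included, and are raised by interferons, mainly through IRF1 and NLRC5.

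The arrays hold RNA of LSK cells, the sorted fraction of mouse blood-forming tissue that contains stem cells and early progenitors. There were 3 groups with 5 biological replicates each. Cells were taken directly after the sort (non-cultured), kept for 18 h in MyeloCult medium without extracellular vesicles (without EV), or kept for 18 h in that medium with vesicles released by AFT stromal cells (with EV). The sources used here do not state strain, sex, age, number of animals or vesicle dose. All values are log2 signals of Affymetrix Mouse Gene 2.0 arrays as deposited, and a difference of 1 is a 2-fold change. Array medians lay between 4.62 and 4.74, and the number of arrays limits the precision: the median standard error (SE) of a difference was 0.15. The mean correlation of an array with its group was 0.928 for replicate 1 with EV and 0.943 to 0.961 for the other 14 arrays. Of 8 LSK markers 6 were measured, Ly6a not among them, with a mean between 8.18 and 8.65 on every array. That mean covers markers that moved in different directions. Against non-cultured cells Flt3 was called higher without EV (log2 0.63) and with EV (log2 0.65), and Hlf lower with EV (log2 -0.38). No other LSK marker was called, and Slamf1 was dim, with group means from 3.79 to 4.31. The lists for B cells (3 genes), T cells (3) and NK cells (3) had means between 3.42 and 4.31 with no gene called in any comparison, and none of the 3 erythroid markers had a probe set of its own.

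Stretches of DNA before the start of H2-Q10 and of some other members are shown first, as a description. Their part in the array values described after them was not tested. RefSeq promoters of assembly GRCm38.p6 were found for 8 of the 10 genes, all but Tap2 and Nlrc5, and the 250 bases before the start were searched on both strands for 5 motifs. Below are the windows of H2-Q10 (chr17:35469839-35470088, plus strand) and of H2-D1 (chr17:35262844-35263093, plus strand), a classical gene, both written 5′ to 3′. Capitals in H2-D1 mark motif matches, which are in order an NF-kB consensus, an X2 or CRE core and 2 Y boxes. Capitals in H2-Q10 mark the bases that align with them.
H2-Q10: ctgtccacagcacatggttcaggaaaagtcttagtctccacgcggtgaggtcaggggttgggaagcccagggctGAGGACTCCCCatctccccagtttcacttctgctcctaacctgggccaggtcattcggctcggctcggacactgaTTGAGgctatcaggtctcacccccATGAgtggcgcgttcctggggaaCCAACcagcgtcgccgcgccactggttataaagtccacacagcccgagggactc
H2-D1: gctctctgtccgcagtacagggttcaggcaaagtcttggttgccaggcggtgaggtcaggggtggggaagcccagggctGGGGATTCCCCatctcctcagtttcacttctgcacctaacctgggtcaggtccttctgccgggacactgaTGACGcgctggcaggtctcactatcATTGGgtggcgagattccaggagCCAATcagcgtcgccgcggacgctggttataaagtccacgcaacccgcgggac

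The windows were 85.9% identical over 241 aligned bases, and H2-Q10 was 84.7% identical to H2-K1 over 196 aligned bases. H2-Q10 held a match to 0 of the 5 motifs, whereas H2-D1 and H2-K1 each held 3. At the NF-kB stretch 9 of 11 bases were the same in H2-Q10 and H2-D1, and at the X2 stretch 2 of 5. The motifs were the Y box CCAAT, present in 33.8% of all 32851 promoter windows, the X2 or CRE core TGACG (17.8%), the NF-kB consensus (7.25%), the gamma-activated site TTCNNNGAA (7.02%) and the interferon-stimulated response element core (GAAA, any 2 bases, GAAA; 2.98%). NF-kB matches in H2-K1 and H2-D1 are pairs that overlap by all but 1 base. The absence of a match says only that these letters are not in this window.

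Shorter stretches show motif matches, in capitals, in some other members. They come from H2-K1 (chr17:34000439-34000468 and chr17:34000359-34000388, minus strand), B2m (chr2:122147544-122147573, plus strand) and H2-T23 (chr17:36032806-36032835, minus strand).
H2-K1, NF-kB: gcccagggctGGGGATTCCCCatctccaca
H2-K1, X2 and Y: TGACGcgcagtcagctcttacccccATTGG
B2m, interferon element and NF-kB: acatGAAACTGAAAatgGGAAAGTCCCttt
H2-T23, interferon element: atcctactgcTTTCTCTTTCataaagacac
Of the 8 genes with a window, B2m and H2-T23 held an interferon element core. H2-M3 held a match to 4 motifs, Tap1 to the X2 core and the Y box, and Tapbp to the Y box alone.

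H2-Q10 encodes a class I heavy chain without a membrane anchor, known as a protein secreted mainly by the liver. On probe set 17337152 its log2 signal with EV was 10.80, 11.07, 11.12, 10.84 and 10.65 in replicates 1 to 5. Without EV it was 8.35, 8.0, 8.56, 7.33 and 7.37, and in non-cultured cells 7.70, 7.94, 8.56, 6.62 and 6.96. Every array with EV lay above all 10 arrays of the other groups, which overlapped each other widely. The order of the group means was thus with EV (10.89 ± 0.20, SD, n = 5), without EV (7.92 ± 0.56) and non-cultured (7.56 ± 0.78), and the last 2 did not differ beyond their spread. With EV the signal was 7.84-fold that without EV (log2 2.97, SE 0.33), and between 2.82 and 3.13 on the log2 scale over all alternatives. Against non-cultured cells it was higher by log2 3.34 (SE 0.33). Replicates 4 and 5 were the lowest arrays both in non-cultured cells and without EV, and without the non-cultured arrays 4 and 5 the difference of culture alone turned from log2 0.37 to -0.14. Without replicate 1 with EV, the array least correlated with its group, the difference with vesicles was 2.99.

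The other probe set of H2-Q10, 17337142, did not show this difference. Its signal with EV was 5.61, 5.08, 5.44, 5.56 and 5.24, against 5.61, 5.28, 4.97, 5.19 and 5.27 without EV. These groups overlapped (log2 difference 0.12, SE 0.12, 95% interval -0.14 to 0.39). Non-cultured cells had 5.69, 5.89, 5.73, 5.64 and 5.83, above every cultured array, so that this probe set was lower by log2 -0.49 (SE 0.12) without EV and by -0.37 (SE 0.12) with EV. Which bases of the gene each probe set covers was not used here, and class I genes are close copies of each other, so the signal of either probe set may hold RNA of a related gene.

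**Figure D1:**
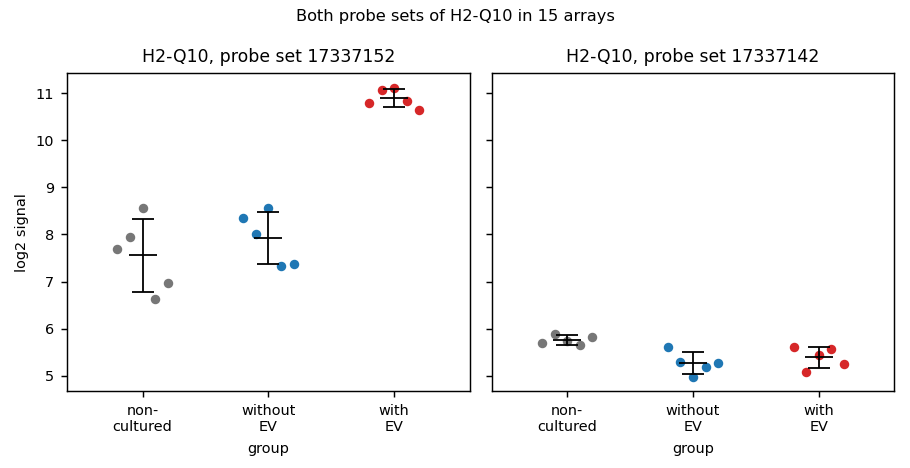
Log2 signal (vertical axis) of both probe sets of H2-Q10 in the 3 groups (horizontal axis), 1 point per array in replicate order with the group mean and SD as bars. On 17337152 the 5 arrays with EV sit between 10.65 and 11.12 and all others between 6.62 and 8.56, while on 17337142 all 15 arrays sit between 4.97 and 5.89.

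The genes whose pattern over the 15 arrays was most like that of probe set 17337152 were Kif1c, a kinesin motor (Pearson r = 0.953), Wasf3, an actin regulator (0.946), Cgnl1, a cell junction gene (0.944), Peg10, an imprinted gene derived from a retrotransposon (0.939), and Ddr2, a collagen receptor (0.937). Kif1c for example had a mean of 5.42 in non-cultured cells, 5.12 in culture without EV and 9.74 with EV. These correlations are descriptions over 15 arrays that fall into 3 groups, and each of the 5 genes had its highest mean with EV. Members and some kinds of gene were left out of the search by symbol, as given under the processing. For probe set 17337142 the most similar genes were others: BC051142 (r = 0.898), the phosphofructokinase Pfkl (0.875), Otos (0.872), the coactivator Ppargc1a (0.863) and Klf16 (0.86). All of these had their highest mean in non-cultured cells.

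The nearest genes to H2-Q10 on chromosome 17 that have a probe set of their own had smaller differences with EV than probe set 17337152. This set was chosen after the values of H2-Q10 were seen. Nearby genes without such a probe set, which can include close copies of H2-Q10, were not examined, and H2-Q2 is not in the set. Among 5 genes on each side with a probe set of their own, H2-Q5 differed by log2 0.35 (SE 0.21), H2-Q4 by 0.22 (SE 0.22), H2-Q1 by 0.03 (SE 0.20) and Pou5f1 by -0.01 (SE 0.12). None of the 10 was called, with limma adjusted p from 0.85 to 0.997. As H2-Q10 is known from liver, hepatocyte markers were examined beside it, and of 8 listed 7 were measured. Of these 0 were called with EV against without EV, where 0.167% of all genes were, and 1 had an unadjusted p under 0.05. That was Ahsg, at log2 -0.41 (limma adjusted p = 0.644), which was called higher without EV against non-cultured cells (log2 0.46, adjusted p = 0.0483). The list mean lay between 4.06 and 4.37 with EV and between 4.09 and 4.30 without, below every array median (4.62 to 4.74). Calls are hard to reach for genes this dim, so the count of 0 says little. Summed over the 7 genes, the same log2 values lay between 28.4 and 30.6 with EV and 28.6 and 30.1 without, which restates that mean. Of 9 stromal markers 0 were called with EV against without EV and 3 had an unadjusted p under 0.05. Their summed log2 values were 39.5 to 42.2 with EV and 39.6 to 40.3 without. The share of all genes at an unadjusted p under 0.05 was not computed, so counts at that level have no background. Against non-cultured cells 2 stromal markers were called higher with EV, Col1a2 (log2 0.31) and Cxcl12 (log2 0.48), and 1, Thy1, lower. In culture without EV 0 were called higher and 1 lower. Over all genes 5.12% were called higher and 6.66% lower with EV, and 5.49% and 5.61% without EV. The part of these markers in the values of H2-Q10 was not tested.

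Vesicles were not followed by a called difference in any other member. Of the 9 probe sets of the 8 other genes, 0 were called with EV against without EV (limma, Benjamini-Hochberg adjusted p under 0.05 over all 41345 probe sets), and 0 had an unadjusted p under 0.05. Over all probe sets 0.133% were called in this comparison. Differences lay between log2 -0.28 (Tap2) and 0.06 (H2-K1 and a probe set of Tapbp), with a median of -0.05 against 0.01 over all probe sets, and the 5 arrays with EV overlapped the 5 without EV in all 9 (1.14% of all probe sets did not overlap). The 95% interval was -0.10 to 0.22 for H2-K1 and -0.51 to 0.44 for H2-M3. That of B2m was -0.16 to 0.07, but its probe set read near the highest value of the table on every array.

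Culture without EV, set against non-cultured cells, moved members in opposite directions. Of the 9 probe sets, 2 were called higher, where 4.01% of all probe sets were, and 1 was called lower, where 4.68% were. H2-K1, a classical heavy chain that presents peptide to CD8 T cells, was lower, and H2-T23 and Tap2 were higher. In 2 of the 9, H2-K1 and Tap2, the groups did not overlap, as in 9.45% of all probe sets. The median over the 9 was log2 -0.23, against -0.003 over all probe sets.

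H2-K1 had a signal of 9.32, 9.40, 9.48, 9.39 and 9.26 in non-cultured replicates 1 to 5. Without EV it was 8.96, 9.10, 9.16, 8.97 and 8.95, and with EV 9.12, 9.04, 9.0, 9.23 and 9.05. All cultured arrays lay below all non-cultured ones, and the cultured groups overlapped. H2-K1 fell 1.26-fold without EV (log2 -0.34, SE 0.07, limma adjusted p = 0.00828) and 1.21-fold with EV (log2 -0.28, SE 0.07, adjusted p = 0.0264). After quantile normalization neither was called (log2 -0.24, adjusted p = 0.054 without EV, and -0.14, adjusted p = 0.289 with EV). The fall with EV was also not called without replicate 2 (adjusted p = 0.0584), 3 (0.064) or 5 (0.0566) with EV, nor without non-cultured replicate 2 (0.0593), 3 (0.0667) or 4 (0.054). Among the genes searched, those most like H2-K1 over the 15 arrays were the replication factor gene Pclaf (r = 0.938), the cell cycle inhibitor gene Cdkn1a (0.931) and Hnrnpf (0.913). All were highest in non-cultured cells.

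H2-T23 encodes a nonclassical heavy chain that displays leader peptides of other class I molecules to an inhibitory receptor of NK cells. Its signal was 6.98, 6.80, 6.89, 7.11 and 7.04 in non-cultured cells, 7.70, 7.0, 7.68, 7.41 and 7.67 without EV, and 7.10, 7.54, 7.22, 7.69 and 7.22 with EV. Without EV, only replicate 2 reached down into the range of non-cultured cells. H2-T23 rose 1.44-fold without EV (log2 0.53, SE 0.15, limma adjusted p = 0.0367), and with EV it differed by log2 0.39 (SE 0.15, adjusted p = 0.124). The difference between these 2 values, that of with EV against without EV, was log2 -0.14 (SE 0.15) and was not called.
The rise without EV was close to the threshold. It was not called without non-cultured replicate 1 (limma adjusted p = 0.068), 2 (0.0895), 3 (0.0794) or 5 (0.0549), nor without replicate 1 (0.0871), 3 (0.0884), 4 (0.0585) or 5 (0.0905) of the group without EV. It was also lost with a replicate block (adjusted p = 0.073) and without non-cultured replicates 4 and 5 together (0.0649). Without replicate 2 of the group without EV it was log2 0.65 (adjusted p = 0.00544).

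H2-M3 presents peptides with a formylated first residue, as bacteria and mitochondria make them. Its signal was 6.18, 6.0, 7.36, 6.07 and 6.17 in non-cultured cells, 6.30, 5.60, 6.03, 5.80 and 5.99 without EV, and 5.67, 5.90, 5.94, 6.05 and 5.98 with EV. Replicate 3 of the non-cultured cells stood far above all other arrays. The difference from non-cultured cells was log2 -0.41 (SE 0.22, limma adjusted p = 0.34) without EV and -0.45 (SE 0.22, adjusted p = 0.264) with EV. Without that array these values were -0.16 (adjusted p = 0.595) and -0.20 (adjusted p = 0.434).

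B2m, the light chain shared by all these heavy chains, was the steadiest member. Its signal lay between 12.41 and 12.44 in non-cultured cells, between 12.44 and 12.52 without EV and between 12.40 and 12.50 with EV. The groups overlapped, and the difference of culture was log2 0.06 (SE 0.05, limma adjusted p = 0.636) without EV and 0.01 (SE 0.05, adjusted p = 0.924) with EV. The highest value in the whole table was 13, so this probe set read near the top of the scale.

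Tap1 and Tap2 encode the paired subunits of the peptide transporter. Tap2 had 6.62, 7.03, 6.93, 6.34 and 6.85 in non-cultured cells, 7.45, 7.77, 7.36, 7.10 and 7.33 without EV, and 6.78, 7.46, 7.12, 7.14 and 7.14 with EV. All arrays without EV lay above all non-cultured arrays, whereas the arrays with EV overlapped both groups. Tap2 rose 1.57-fold without EV (log2 0.65, SE 0.16, limma adjusted p = 0.017) and differed by log2 0.37 (SE 0.16, adjusted p = 0.18) with EV. Without non-cultured replicates 4 and 5 together the rise was log2 0.54 and was not called (adjusted p = 0.0827). Its partner Tap1 lay between 7.44 and 7.75 in non-cultured cells, 7.30 and 7.80 without EV and 7.21 and 7.78 with EV, with overlap throughout. It differed by log2 -0.06 (SE 0.12) in culture either way, with a 95% interval of -0.32 to 0.20. The interval of Tap2 was 0.31 to 0.98 without EV and 0.04 to 0.71 with EV, where it overlapped that of Tap1. Whether Tap1 and Tap2 differ in their response was not tested.

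Tapbp encodes tapasin, which holds empty class I molecules at the transporter. Its probe sets gave like results: 17336228 lay between 7.07 and 7.75 in non-cultured cells, 6.68 and 7.40 without EV and 6.77 and 7.39 with EV, and 17343675 between 5.34 and 6.58, 5.40 and 5.97, and 5.27 and 5.79 in the same order. Differences from non-cultured cells were log2 -0.29 (SE 0.16) and -0.23 (SE 0.19) without EV, and -0.23 and -0.34 with EV, with limma adjusted p from 0.337 to 0.586. Nlrc5, the transactivator of class I genes, had 6.48, 6.12, 5.62, 6.60 and 6.25 in non-cultured cells, 5.51, 5.87, 5.91, 5.92 and 6.39 without EV and 5.54, 5.75, 5.69, 5.72 and 6.17 with EV. Its non-cultured arrays were mostly the higher ones, but the groups overlapped. It differed by log2 -0.30 (SE 0.19, limma adjusted p = 0.454) without EV and -0.44 (SE 0.19, adjusted p = 0.19) with EV. Without non-cultured replicate 3, its lowest array there, the latter was -0.59 (limma adjusted p = 0.0494), the only one of 15 fits without 1 array in which it passed. It passed in 0 of 8 other settings, and without non-cultured replicate 4 it was -0.35 (adjusted p = 0.362).

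**Figure D2:**
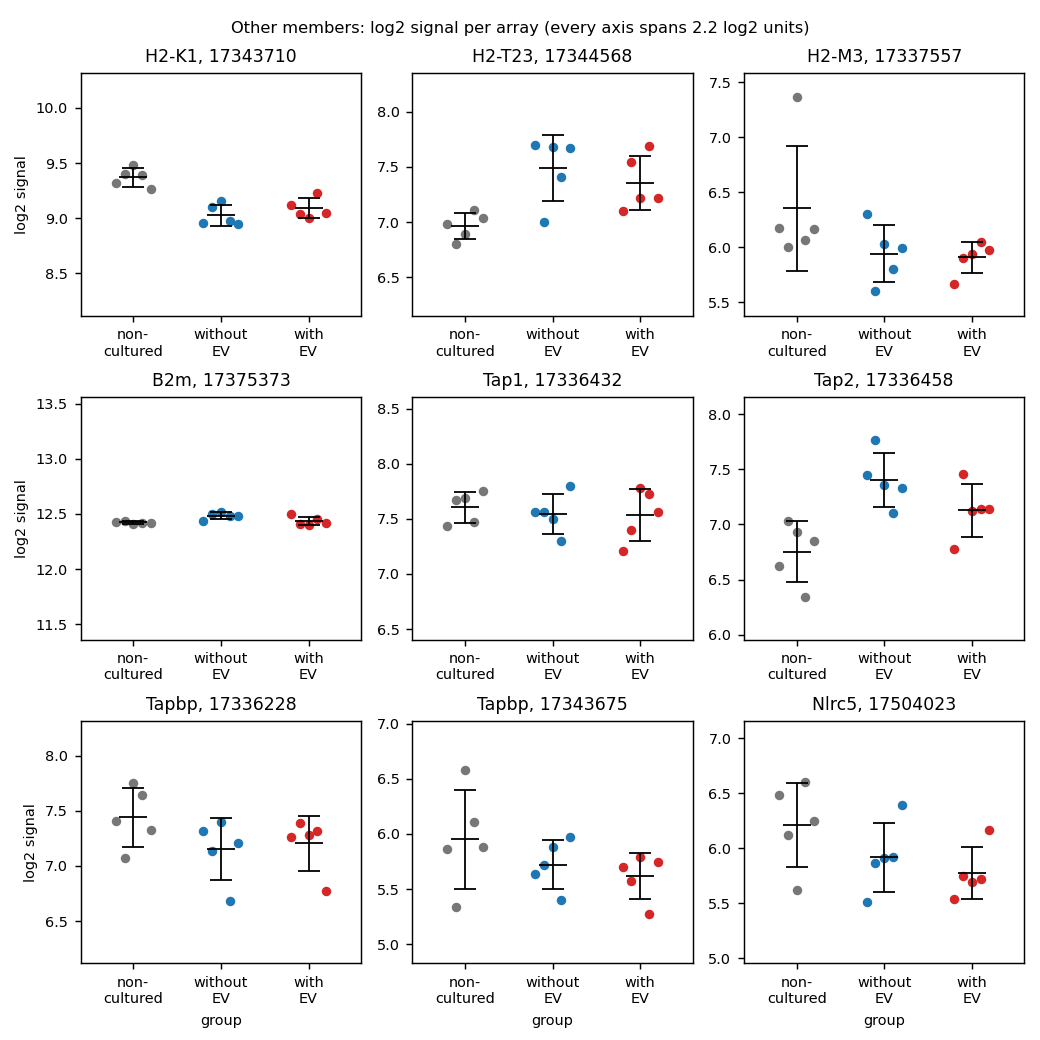
Log2 signal (vertical axes, each spanning 2.2 units) of the 9 probe sets of the 8 other genes in the 3 groups (horizontal axes), 1 point per array with the group mean and SD as bars. H2-K1 is lower in all cultured arrays, Tap2 higher in all arrays without EV than in any non-cultured array, and B2m stays between 12.40 and 12.52 throughout.

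Culture with EV against non-cultured cells shares 5 arrays with each of the other comparisons. Of the 9 probe sets 1, H2-K1, was called lower (5.59% of all probe sets were) and 0 higher (3.81%). Of the 9, 4 had an unadjusted p under 0.05, but the share of all probe sets at that level was not computed, so this count has no background. H2-K1 was also the only one of the 9 whose groups did not overlap, against 8.96% of all probe sets. Their median was log2 -0.23, against 0.02 over all probe sets. Some markers of mature myeloid cells were higher in both cultured groups, where 5.49% of all genes were higher without EV and 5.12% with EV. Of 5 monocyte or macrophage markers 4 were called higher in each, with a list mean of 5.95 to 6.14 in non-cultured cells, 7.05 to 7.41 without EV and 7.04 to 7.35 with EV. Of 5 neutrophil markers 2, S100a8 and S100a9, were called higher in each and Ngp, Camp and Ltf in neither, with list means of 5.08 to 7.60, 7.33 to 8.57 and 7.44 to 8.15. Of 3 dendritic cell markers 1 was higher and 1 lower without EV. The part of these in the class I results was not tested, and in bulk samples fewer cells of a type and less RNA per cell cannot be told apart.

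**Figure D3:**
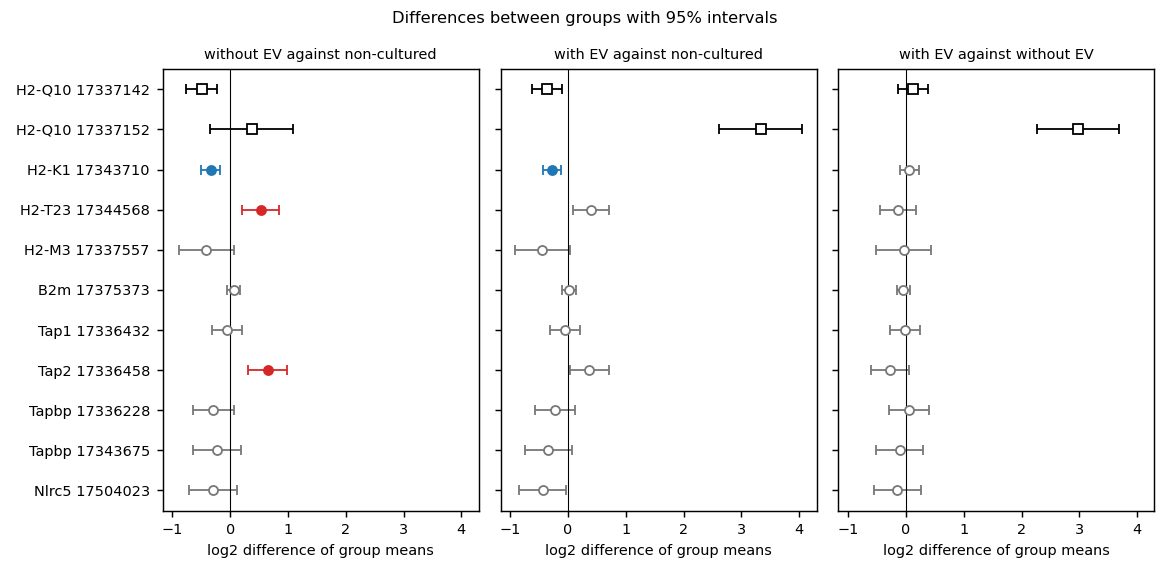
Difference of group means on the log2 scale (horizontal axis) with its 95% interval for all 11 probe sets in the 3 comparisons. Filled red and blue circles were called higher and lower by limma, open circles were not called, and open squares are H2-Q10, which was not tested. Its probe set 17337152 lies near 3 in both comparisons with EV, and all other points lie between -0.49 and 0.65.

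Other genes of the pathway were taken from 5 lists, with 1 probe set a gene. Of 19 measured genes of peptide processing and loading, 3 fell and 0 rose without EV against non-cultured cells, where 5.61% of the 22180 genes fell and 5.49% rose. With EV 7 fell and 0 rose (background 6.66% and 5.12%). The list median was log2 -0.17 in both, against 0.01 and 0.04 over all genes. Erap1, the aminopeptidase that trims peptides in the endoplasmic reticulum, fell 1.53-fold without EV (log2 -0.62, SE 0.13, limma adjusted p = 0.00625) and 1.80-fold with EV. The proteasome activator genes Psme1 (1.52-fold and 1.64-fold) and Psme3 (1.65-fold and 1.85-fold) fell in both. Psme2, the partner of Psme1, differed by log2 -0.08 and -0.12 and was not called.

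With EV the chaperone Calr (log2 -0.45, SE 0.09, limma adjusted p = 0.00421) and the immunoproteasome subunit genes Psmb10 (-0.50, SE 0.11), Psmb9 (-0.61, SE 0.15) and Psmb8 (-0.38, SE 0.10) fell too. Without EV these were log2 -0.28, -0.26, -0.50 and -0.25 in the same order and not called. For none of the 4 was the difference between with EV and without EV called, and the list had 0 of 19 called in that comparison. Psmb8 and Psme2 lie outside the rule for named genes and were chosen after their values were seen. With the test run on 1 probe set a gene, 6 genes of this list were lower without EV. After quantile normalization 1 was higher with EV against non-cultured cells.

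Among 26 other class I and class I-like genes, 0 rose and 1 fell without EV, and 1 rose and 1 fell with EV. Over all genes 5.49% rose and 5.61% fell without EV, and 5.12% rose and 6.66% fell with EV. H2-Q4 fell without EV (log2 -1.0, SE 0.22, limma adjusted p = 0.00932) and with EV (-0.77, SE 0.22, adjusted p = 0.039). H2-T24 rose with EV against non-cultured cells (log2 0.68, SE 0.19, adjusted p = 0.0315) and differed by 0.54 without EV (adjusted p = 0.0969). Mr1, which presents vitamin metabolites, differed by log2 0.79 (SE 0.30, adjusted p = 0.14) without EV. The list medians were 0.05 and 0.04, and 0 genes of it were called with EV against without EV. The call of H2-T24 was lost without replicate 1, 4 or 5 with EV or non-cultured replicate 1, 2, 3 or 5. The call of H2-Q4 with EV was lost without replicate 1, 2 or 3 with EV, non-cultured replicate 1, 3, 4 or 5, or replicate 5 of the group without EV, and without non-cultured replicates 4 and 5 together. It was also lost after quantile normalization, with a replicate block and with the spread of the 2 groups alone. For culture without EV the count that rose was 1 instead of 0 without non-cultured replicate 4 or without non-cultured replicates 4 and 5 together. It was also 1 without replicate 2 of the group without EV. The count that fell was 2 instead of 1 without replicate 4 of that group.

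Regulators of class I genes moved both ways. Of 24 measured, 7 rose and 4 fell without EV, and 3 rose and 5 fell with EV. Over all genes 5.49% rose and 5.61% fell without EV, and 5.12% rose and 6.66% fell with EV. The interferon regulatory factor Irf1, an activator of class I promoters, fell 2.26-fold without EV (log2 -1.17, SE 0.16, limma adjusted p = 0.00025) and 2.18-fold with EV. Nfyb, a subunit of the factor that binds the Y box, fell 2.02-fold and 2.22-fold, and Irf7 1.61-fold and 1.63-fold. Irf8, a factor of monocyte and dendritic cell development, rose 3.09-fold and 3.48-fold, and the interferon receptor subunit Ifnar2 1.37-fold and 1.43-fold. Stat2 rose without EV (log2 0.77, SE 0.19, adjusted p = 0.016). Rela, which encodes a subunit of NF-kB, fell with EV (log2 -0.61, SE 0.15, limma adjusted p = 0.0196). Without EV it differed by log2 -0.27 and was not called, nor was its difference of -0.34 between with EV and without EV. The count of those that rose without EV was 4 instead of 7 without non-cultured replicate 1 or 2 or without replicate 2 of the group without EV. With EV the count that rose was 6 instead of 3 without replicate 1 with EV, 6 after quantile normalization and 5 without non-cultured replicates 4 and 5. The count that fell was 3 instead of 5 without non-cultured replicate 1 and with the spread of the 2 groups alone.

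Class II genes, whose products display peptides to CD4 T cells, fell in part in culture. Of 9 measured, 6 fell without EV (5.61% of all genes did) and 4 with EV (6.66%), and 0 rose, with list medians of log2 -0.86 and -0.46. H2-Ob, H2-DMb2 and H2-Eb2 were called in neither. H2-Aa fell 3.73-fold without EV (log2 -1.90, SE 0.20, limma adjusted p = 2.86e-05) and 3.23-fold with EV, and H2-Ab1 3.12-fold and 2.62-fold. H2-Aa was dim in culture, with means of 3.80 without EV and 4.01 with EV, below every array median (4.62 to 4.74). H2-DMb1 and H2-Eb1, called lower without EV, lay below every array median in non-cultured cells as well (means 4.51 and 4.35). The class II regulator Ciita differed by log2 -0.09 and -0.02 and was not called. It is named here after its values were seen. Of 27 interferon-stimulated genes 7 fell and 1 rose without EV, and 5 fell and 0 rose with EV (medians -0.25 and -0.28). Over all genes 5.61% fell and 5.49% rose without EV, and 6.66% fell and 5.12% rose with EV (medians 0.01 and 0.04). Cxcl10 fell 4.25-fold and 2.75-fold, Bst2 2.13-fold and 2.40-fold and Ifitm3 1.63-fold and 1.91-fold. The mean of Cxcl10 without EV, 4.22, also lay below every array median. The count of 5 that fell with EV was 8 with the test run on 1 probe set a gene, and 3 with the spread of the 2 groups alone, without replicate 2 with EV or without non-cultured replicate 2 or 4. The 1 that rose without EV was lost without non-cultured replicate 1, 2 or 3 or without replicate 1, 2 or 4 of the group without EV. It was also lost without non-cultured replicates 4 and 5 together, and the count was 2 without replicate 3 of the group without EV. After quantile normalization 1 rose with EV instead of 0. With EV against without EV 0 genes of the 5 lists were called, where 0.167% of the 22180 genes were. The largest value there among interferon-stimulated genes was that of Cxcl10 (log2 0.63, SE 0.20, limma adjusted p = 0.63), and the class II list had a median of 0.15.

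**Figure D4:**
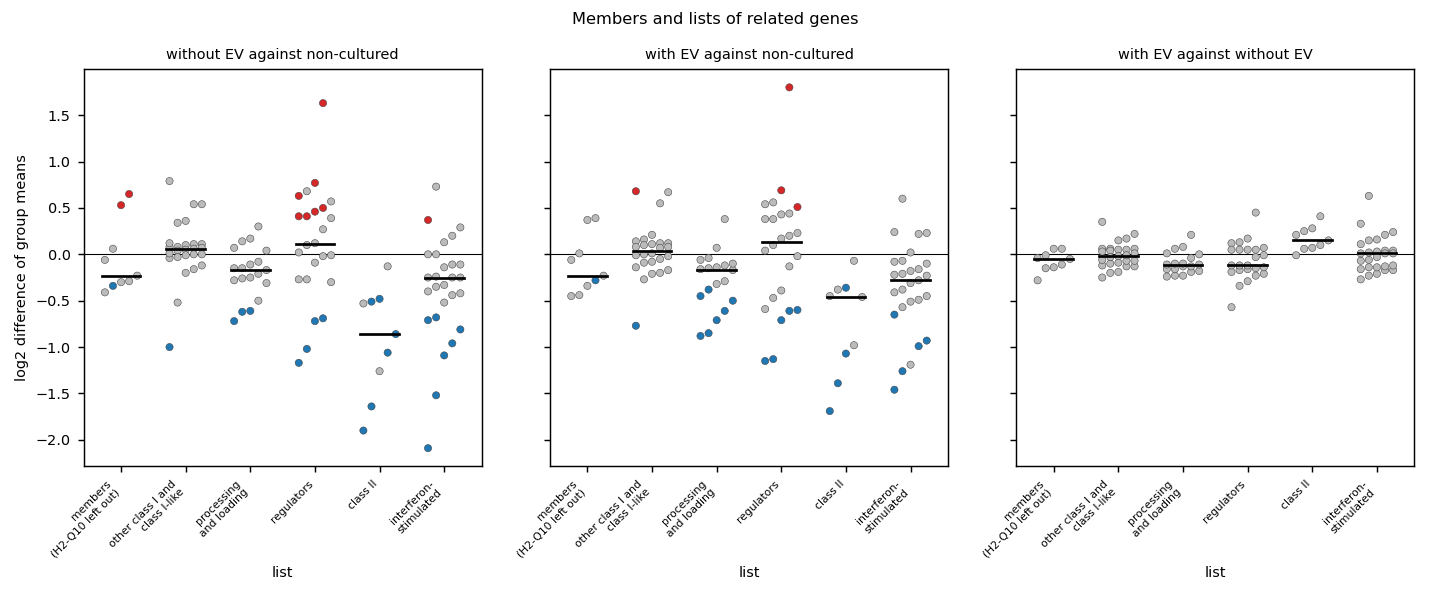
Difference of group means on the log2 scale (vertical axis) for the members without H2-Q10 and for 5 lists of related genes (horizontal axis) in the 3 comparisons, 1 point per probe set, with red and blue for genes called higher and lower by limma and a bar at the list median. The class II list has the lowest median in both comparisons with non-cultured cells, and no point is coloured for with EV against without EV.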

How the data were processed

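RNA (500 pg per sample, per the labels' protocols) of 15 samples was hybridised to Mouse Gene 2.0 arrays. The deposited values are on a log scale, with the base not stated and taken as log2 from their range of 1.4 to 13. The submitters' processing notes name MAS5 without a role or version, and the sources used here state neither background correction nor normalization. Without detection calls, a dim gene cannot be told from background. Probe sets were named from GEO's platform annotation: 23521 had 1 symbol, 1814 several and 16010 none. The members and lists were chosen with earlier results of these data known.

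Values were used as deposited. A group-means model over all 15 arrays was fitted with limma 3.58.1 in R 4.3.3 (12 residual and 2.06 prior degrees of freedom), with two-sided p-values adjusted by Benjamini-Hochberg over 41345 probe sets and calls at 0.05. The script was tested on simulated data. The series design calls the samples biological replicates without naming animals, so p-values measure only the spread between these samples. No 2 of the arrays held identical values. For context lists the probe set with the highest mean stood for a gene. All member probe sets are named, and of each list up to 6 genes per comparison with the smallest adjusted p. By Pearson's r over the arrays, the 5 most similar genes were taken for each H2-Q10 probe set and 3 for other members. Members, predicted genes, small RNAs and receptor or antibody segments were left out of this search. All but the members were recognised by letters of the symbol, which also left out other genes, such as those of the Traf and Rnf families. Alternatives were quantile normalization, median centring, 1 probe set a gene, leaving out the dimmest 40% of probe sets, another prior, the spread of the 2 groups compared, a replicate block and leaving out each array. Leaving out non-cultured replicates 4 and 5 together was added after seeing the data.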

Additional observations from a re-analysis of the deposited data

Results flagged for a closer look

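In the 33 sets of 5 arrays examined (11 probe sets in 3 groups), 2 held an array far from the others by Dixon's criterion, where chance gives about 5% of sets. H2-M3 in non-cultured replicate 3 was 7.36, with the other 4 arrays between 6.0 and 6.18. Tapbp on probe set 17336228 was 6.77 in replicate 5 with EV, with the other 4 between 7.26 and 7.39, and without this array the difference with EV was log2 0.16 from without EV and -0.12 from non-cultured cells.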

How the results depend on the processing

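H2-Q10 moved by less than the spread between arrays in all 135 values computed under the alternatives. That spread was wide on probe set 17337152 (SD 0.56 without EV and 0.78 in non-cultured cells). There the difference without EV against non-cultured cells changed sign, from log2 0.37 to -0.14, without non-cultured replicates 4 and 5 together. With EV against without EV, 0 of the other 9 probe sets were called under every alternative run. Without EV against non-cultured cells, 3 were called in the full fit, 2 to 3 when 1 array was left out, and 1 without non-cultured replicates 4 and 5 together, where H2-T23 had a limma adjusted p of 0.0649. With EV against non-cultured cells the count of 1 became 0 after quantile normalization, with a replicate block, with the spread of the 2 groups alone and without non-cultured replicates 4 and 5, and lay between 0 and 1 when 1 array was left out. The cause was not tested. Differences near 0 changed sign: H2-M3 with EV against without EV was 0.02 without replicate 1 with EV and 0.05 when replicate 1 without EV was dropped (-0.12 to 0.05 over all arrays left out). Tap1 in that comparison was 0.06 after quantile normalization, 0.07 and 0.03 without replicates 1 and 2 with EV and 0.06 when replicate 5 without EV was dropped (-0.07 to 0.07). Tap1 against non-cultured cells was 0.00406 without EV when replicate 4 of that group was left out (-0.12 to 0.00406), and with EV 0.04 after quantile normalization and 0.02 without replicate 1 (-0.12 to 0.02). B2m with EV against non-cultured cells was -0.00188 without replicate 1 with EV (up to 0.02), and Tapbp (17336228) with EV against without EV was -0.06 when replicate 4 without EV was dropped (-0.06 to 0.16). None of these was called. Of the counts over the lists, 643 stayed within 1.5 times of the full fit and 47 did not.

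Of 15 pairs of arrays that share a replicate number, 1 had deviations correlated above 0.1 (range -0.0834 to 0.124, median 0.0165, against -0.00428 for other pairs). An array correlated best with its own number in 12 of 30 cases, where an even draw gives 6, which is a hint from the data that the numbers carry something shared. They were not taken to pair the samples, since not every pair passed 0.1 and the labels name no shared source. With the block the SE of H2-Q10 (17337152) was 0.204 instead of 0.333. With the replicate as a block, 0, 2 and 0 of the 9 probe sets were called with EV against without EV, without EV against non-cultured and with EV against non-cultured. The calls lost were those of H2-T23 without EV (limma adjusted p = 0.073) and H2-K1 with EV (0.0564).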
